A study of Mus musculus with 2 samples.

Results

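Mature CCR7 dendritic cells were the cells that the deposited cell table assigned to the population called DC3. They numbered 192 of 7815 cells, with 135 in the NTT library and 57 in the RTT library, and were 1 of 16 populations named by the authors. Both libraries came from YUMM3.3 melanomas grown in C57BL/6 mice, and each held live CD45+ cells sorted from 1 tumour taken 12 days after injection by the series' design. The general methods for tumour samples of this kind name an earlier day. YUMM3.3 cells carry mutant Braf and lack Cdkn2a, so this background was shared by both groups. NTT tumours grew from the line naive to targeted therapy and RTT tumours from its derivative resistant to inhibition of the mutant Braf pathway. The sources used here name no drug given to these mice. The question was which features of mature dendritic cells differed between tumours of the parental and the resistant line. Since each line was represented by 1 tumour, 1 mouse, 1 sort and 1 library, these cannot be told apart, and no test between NTT and RTT was possible.

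Conventional dendritic cells take up antigen in tissue and exist as cDC1, which excel at cross-presentation to CD8+ T cells, and cDC2, which mainly prime CD4+ T cells. On maturation both kinds lose much of their lineage programme, move peptide-loaded MHC to the surface, raise costimulatory ligands and acquire the chemokine receptor CCR7. CCR7 guides them along CCL19 and CCL21 towards lymphatics and T cell zones. In tumours, dendritic cells in this state also carry regulatory molecules such as PD-L1 and are often called mature regulatory or LAMP3 dendritic cells.

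The values were counts of unique molecular identifiers (UMIs), each standing for 1 captured RNA molecule, from a 3′ droplet assay of polyadenylated RNA. Levels are given as CPM, UMIs of a gene scaled to a common total of the UMIs summed over all cells of a population in a library, and library differences as the log2 ratio of RTT to NTT. All intervals are 95% intervals and cover counting error only, not the spread between tumours. Intervals of log2 ratios count each UMI as independent, so the spread between cells is left out as well. The DC3 sums held 788685 UMIs in NTT and 283153 in RTT. The median DC3 cell held 5289 UMIs in NTT and 4351 in RTT, so single cells of RTT were sampled somewhat less deeply. The 2 libraries shared 7 barcode sequences, none of them in a DC3 cell.

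The label was set beside 5 markers, among them Ccr7, Fscn1 (fascin, which bundles actin in dendrites) and Ccl22 (a ligand of CCR4). The others were Cacnb3 (a calcium channel subunit) and Il4i1 (a secreted L-amino acid oxidase). UMIs of at least 3 of these markers were found in 118 of 135 NTT cells and 55 of 57 RTT cells. All 5 were found in 48 NTT and 28 RTT cells. Outside DC3, 3 of 2840 NTT cells and 2 of 4783 RTT cells carried at least 3 of them, and none of these was a cDC1 or cDC2. DC3 held 90.9% of all Ccr7 UMIs in the NTT library and 85.8% in the RTT library. The same shares were 96.4% and 92.2% for Ccl22, and 95.1% and 87.4% for Fscn1. The marker levels went with the label in both libraries, although 5 NTT cells and 1 RTT cell carried a single marker. Since the authors named clusters of these same cells by known markers, this describes the label and is no test of it.

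**Figure D1:**
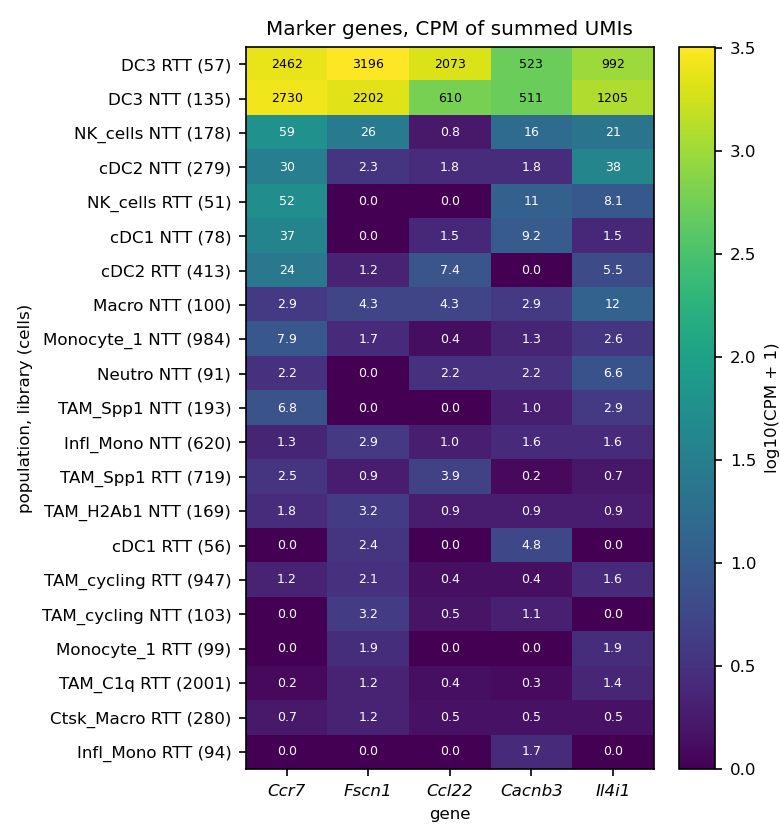
Levels of the 5 markers across the bottom (CPM in each field, colour as log10(CPM + 1)) in each population and library with at least 50 cells, whose number stands in brackets. The DC3 lines at the top stand out for every marker, for example Ccr7 at 2730 CPM in NTT and 2462 CPM in RTT.

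Ccr7 itself was found in 130 of 135 NTT cells and 53 of 57 RTT cells. Among single cells its median level was 2466 CPM in NTT and 1927 CPM in RTT, and its highest was 13293 CPM and 7567 CPM. The distributions overlapped broadly. Summed over cells the log2 ratio was −0.15 (interval −0.27 to −0.03). NK cells, used here as a background for free RNA, held the next highest Ccr7 level (58.8 CPM in NTT and 51.5 CPM in RTT). They had a Ccr7 UMI in 12.9% of NTT and 11.8% of RTT cells, at median depths of 5358.5 and 3967 UMIs. Both shares were well below those in DC3. Neutrophils held 2.21 and 0 CPM, and whether NK cells express Ccr7 themselves was not tested. The gene lies on chromosome 11 at 99144196 to 99155077 (mm10, minus strand). Across the 21 sums of a population in a library with at least 50 cells, the genes whose log2(CPM + 10) pattern was most like that of Ccr7 were Sema7a (Pearson r = 0.978), Stk4 (0.966), Cacnb3 (0.961) and Il4i1 (0.956). These points share libraries and populations, and the values describe likeness only.

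Mature dendritic cells made up 4.54% of all NTT cells (Clopper-Pearson interval 3.82 to 5.35) and 1.18% of all RTT cells (0.893 to 1.52). Within the dendritic cells of each library the shares were 27.4% (23.5 to 31.6) and 10.8% (8.31 to 13.8), a difference of −16.6 percentage points (Newcombe interval −21.3 to −11.8). cDC2, by contrast, were 9.38% of all NTT cells and 8.53% of all RTT cells, a difference of −0.85 points (−2.18 to 0.45). Among dendritic cells cDC2 were 56.7% in NTT and 78.5% in RTT, a difference of 21.8 points (16.1 to 27.3). cDC1 were 2.62% and 1.16% of cells. Relative to cDC1 alone the DC3 share was 63.4% in NTT and 50.4% in RTT, and relative to cDC2 alone it was 32.6% and 12.1%. Outside the monocytes and macrophages, DC3 were 17.4% of NTT and 9.02% of RTT cells. With 1 tumour per line these intervals say nothing of how the share varies between tumours, and the sort on CD45 can itself set shares.

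**Figure D2:**
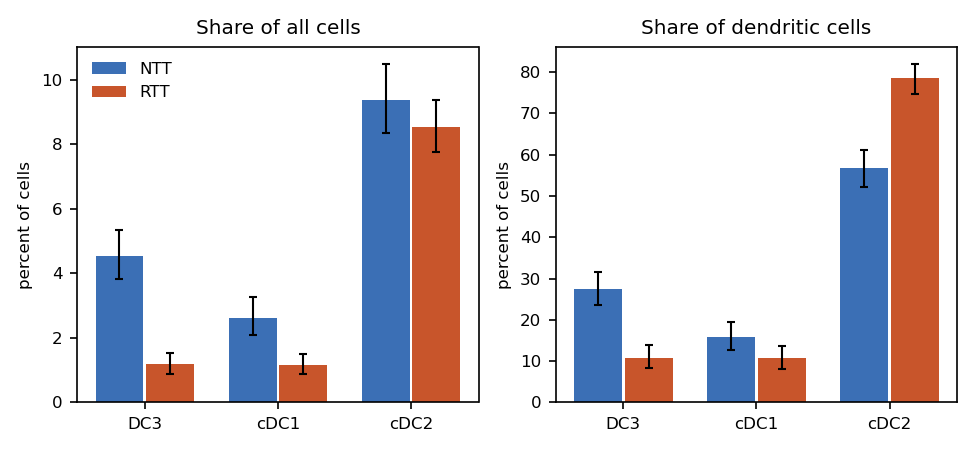
Share (%) of DC3, cDC1 and cDC2 among all cells and among dendritic cells in each library, with 95% intervals from counting. DC3 were 4.54% of NTT and 1.18% of RTT cells, whereas the intervals of cDC2 overlapped among all cells. Among dendritic cells they did not overlap, with cDC2 at 56.7% in NTT and 78.5% in RTT.

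Against cDC1 and cDC2, DC3 carried a broad set of maturation genes. Among 7873 genes with at least 50 UMIs, 417 (5.3%) were at least 2-fold higher in DC3 than in both other populations in both libraries, and 536 (6.81%) were at least 2-fold lower in all 4 ratios. Since the populations were named from clusters of the same cells, these values describe the cells and were not tested. The genes with the largest smallest ratio were Fscn1 (log2 ratio of at least 8.91 in each of the 4 comparisons), Ccl22 (8.12) and Ccr7 (6.22). They were followed by Serpinb6b (6.2), an intracellular serpin, Il12b (5.82), the p40 subunit of IL-12 and IL-23, and Cacnb3 (5.80). No Il12b UMI was counted in cDC1 or cDC2 of either library, so 3 UMIs were set there for the ratio. The top 20 also held Tnfrsf4 (5.47), encoding OX40, Serpinb9 (5.42), an inhibitor of granzyme B, Cd200 (5.31), an inhibitory ligand for myeloid cells, and Il4i1 (4.98). The chemokine gene Ccl5 (4.6) and the CD27 ligand gene Cd70 (4.35) were among them as well.

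Gene groups with at least 20 UMIs were described in the same way, for which the background over 9258 genes was 5.12% higher and 5.85% lower. In the group of NF-kB and TNF receptor genes, 15 of 23 members were at least 2-fold higher in all 4 ratios. They included Relb and Nfkb2, the factors of the alternative NF-kB pathway, its kinase Map3k14, and the feedback inhibitors Nfkbia and Tnfaip3. In the survival group 8 of 15 were higher, among them Bcl2l1 and the Bcl2a1b and Bcl2a1d copies, while Bcl2 was lower. The Bcl2a1 copies are nearly identical, so UMIs may be split between them. Costimulation genes counted 7 of 13 higher (Cd40, Cd80, Cd83, Cd70, Tnfsf4, Slamf1 and Icam1), and immunoregulatory genes 7 of 16, including Cd274 and Pdcd1lg2, which encode the PD-1 ligands, while Havcr2 and Entpd1 were lower.

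Lineage genes were lower or mixed. Of 15 cDC1 genes none was higher and 4 were lower than in both other populations (Tlr3, Wdfy4, Naaa and Sept3). Of 15 cDC2 genes, Tmem176a and Tmem176b were higher and Cd209a, Clec10a and Klrb1b were lower. Irf8, needed for cDC1, stood at 846 CPM in NTT and 1003 CPM in RTT, against 2592 and 2307 CPM in cDC1 and 322 and 118 CPM in cDC2. Its level in DC3 was thus between those of both lineages in both libraries. Batf3, its partner in cDC1, stood at 199 CPM in NTT DC3 and 371 CPM in RTT DC3, against 58.0 and 65.3 CPM in cDC2. Of 15 MHC class II genes, 5 were lower in all 4 ratios, including H2-Ab1, H2-DMa and their activator Ciita, and 2 were higher, H2-Eb2 and Lgmn. H2-Ab1 was counted at 5471 CPM in NTT DC3 and 4803 CPM in RTT DC3, whereas cDC1 and cDC2 held between 12437 and 19906 CPM.

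Before the libraries were compared, cells with macrophage RNA were counted. The complement genes C1qa, C1qb and C1qc are made by macrophages, and 4 of 135 NTT and 9 of 57 RTT cells of DC3 had a summed C1q level of at least 1000 CPM. These cells held 77.5% of the C1q UMIs of DC3 in NTT and 94.5% in RTT. In RTT their median depth was 9710 UMIs, against 4173.5 UMIs in the other cells. Each of them also carried Ccr7 UMIs, between 3 and 17 in NTT and between 2 and 81 in RTT. Of the DC3 cells in the highest 5% of doublet scores of their library, 2 of 9 in NTT and 5 of 5 in RTT were such cells. Values without these 13 cells (without C1q cells) are given beside a number of the results below.

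**Figure D3:**
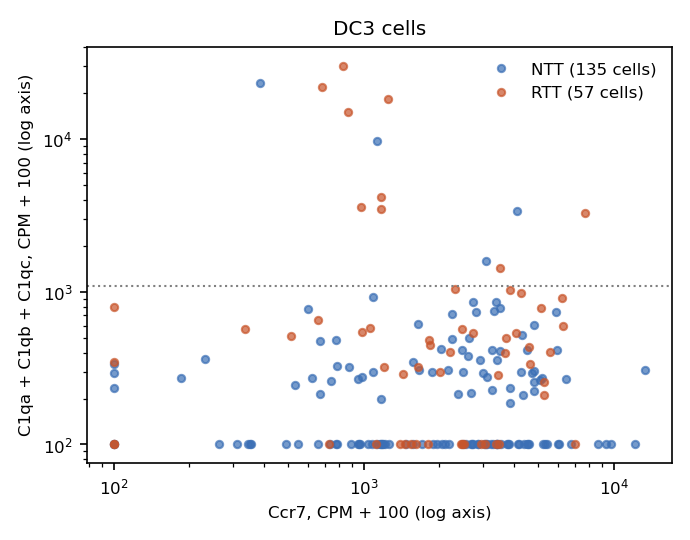
Each point is 1 DC3 cell, with its Ccr7 level (CPM + 100) against its summed C1q level (CPM + 100) on logarithmic axes, in each library. The dotted line marks 1000 CPM of C1q, which 4 NTT and 9 RTT cells reached.

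The macrophage list followed these cells. Of its 15 members with at least 20 UMIs, 13 were at least 2-fold higher in RTT and the median log2 ratio was 1.99. Without C1q cells the median was −0.09 over the 11 members that still had 20 UMIs. Apoe, an apolipoprotein of macrophages, had 91.9% of its RTT UMIs in the 9 cells. Proliferation genes were concentrated in the same way. For Top2a, a topoisomerase of dividing cells, 1 cell held 34 of 37 RTT UMIs. No higher level of macrophage or cell cycle genes is therefore described for the remaining DC3 cells.

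Between the libraries, 168 of 3074 genes with at least 50 UMIs (5.47%) were at least 2-fold higher in RTT DC3 and 222 (7.22%) at least 2-fold lower. Without C1q cells the counts were 81 (2.92%) and 224 (8.06%) of 2778 genes. Higher genes were 43.1% of those counted, and 28.1% or 26.9% when libraries were scaled by TMM or by DESeq2 size factors, which moved all log2 ratios by −0.14 and −0.16. For members of gene groups the minimum was 20 UMIs, at which 8.35% of 5282 genes were at least 2-fold higher and 10.2% at least 2-fold lower. The median log2 ratio of all these genes was 0.03.

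Chemokines that attract CCR4-bearing T cells were higher in RTT. Ccl22 stood at 610 CPM in NTT and 2073 CPM in RTT, a log2 ratio of 1.77 (1.59 to 1.94), and 1.94 without C1q cells. Its UMIs were found in 73 of 135 NTT and 50 of 57 RTT cells. After thinning each cell to 2000 UMIs, which set depth equal and left out 7 NTT and 5 RTT cells, the shares were 41.4% and 75%. NK cells had a Ccl22 UMI in 0.562% of NTT cells and in none of the RTT cells, and with 0 of the 41 RTT NK cells kept after thinning, a limit of 3 counts allows a share of cells with a UMI of up to 7.32%. Ccl17, the other CCR4 ligand, stood at 38 CPM in NTT and 615 CPM in RTT, a log2 ratio of 4.01 (3.45 to 4.62), and 3.92 without C1q cells. It was found in 9 NTT cells, of which 1 held 56.7% of its UMIs, and in 25 RTT cells. Ccl22 was also found in 8 of these 9 and in all 25. cDC2 likewise held more Ccl17 in RTT (211 CPM) than in NTT (9.97 CPM). The genes are neighbours on chromosome 8, where Ccl22 spans 94745590 to 94751699 and Ccl17 94810453 to 94812036 (mm10, plus strand), 58.754 kb apart.

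Ccl5, a chemokine that attracts effector T cells, had ratios of opposite sign in DC3 and cDC2. In DC3 it stood at 4227 CPM in NTT and 11252 CPM in RTT, a log2 ratio of 1.41 (1.34 to 1.48) that was 1.85 without C1q cells. It was found in 96 of 135 and 51 of 57 cells. In cDC2 it stood at 175 CPM in NTT and 27.8 CPM in RTT. NK cells, which make Ccl5 themselves, held 1038 CPM and 1527 CPM, below DC3 in both libraries. Cxcl16, which binds CXCR6 on T cells, differed little, with 1292 and 1621 CPM (log2 ratio 0.33, 0.17 to 0.49).

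The interferon-inducible ligands of CXCR3 went the other way but rested on few cells. Cxcl9 stood at 587 CPM in NTT and 233 CPM in RTT, and 1 cell held 83.3% of the RTT UMIs. Cxcl10 stood at 549 CPM and 208 CPM, and 1 cell held 98.3% of the RTT UMIs. Without the DC3 cell richest in interferon genes in each library, the log2 ratios were −3.89 for Cxcl9 and −6.92 for Cxcl10, the latter with 1 RTT UMI left (interval −12.23 to −4.43). Ccl8 was counted at 25 UMIs in NTT and at none in RTT, at least 2.99-fold lower. Cxcl2, which draws neutrophils, stood at 429 CPM in NTT, but 1 cell held 90.8% of these UMIs and neutrophils of that library held 34392 CPM. Whether neutrophil RNA in that cell is the source was not tested. Over the chemokine list 6 of 14 members were at least 2-fold higher and 6 at least 2-fold lower. The median was 0.32, or −0.75 over 12 members without C1q cells.

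**Figure D4:**
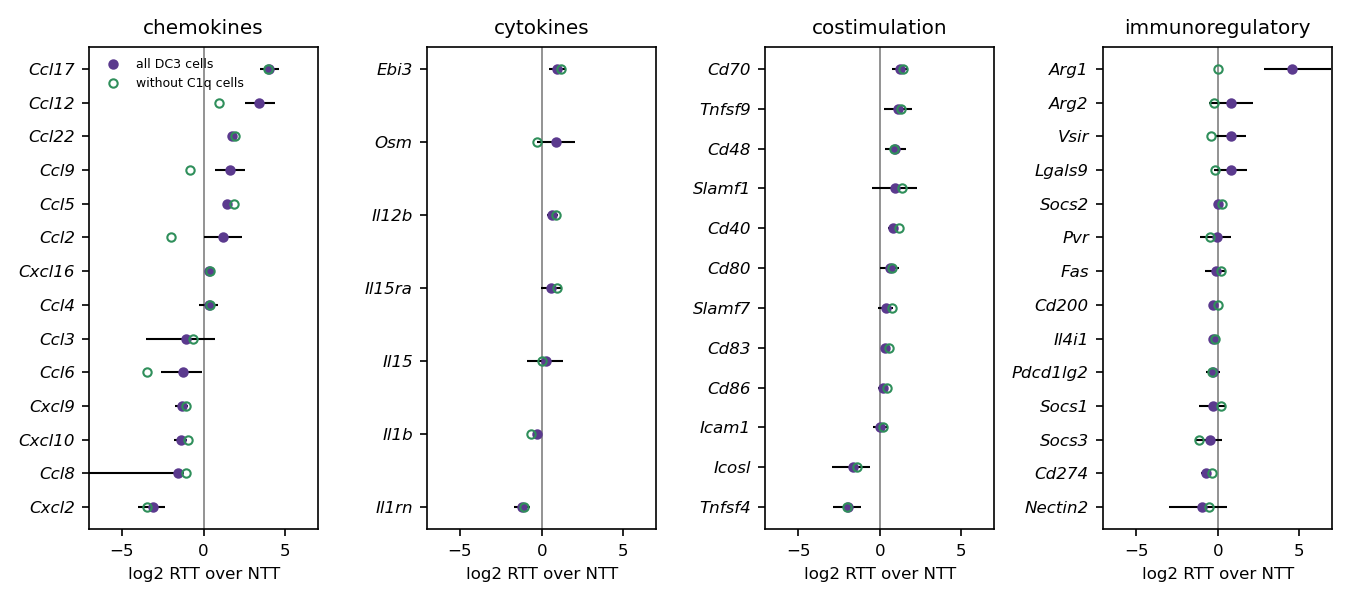
Log2 ratio of RTT to NTT in DC3 for members of 4 gene groups with at least 20 UMIs, for all cells (filled, with 95% counting intervals) and without C1q cells (open). Ccl8 is drawn at its bound, with 3 UMIs set for RTT. The open point of Arg1 is set to 0 because C1q cells held all its RTT UMIs, and is not a measured ratio. Ccl17 (4.01) and Ccl22 (1.77) lie to the right, Tnfsf4 (−1.93) to the left, and most immunoregulatory genes near 0.

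Of 9 chemoattractant receptors with at least 20 UMIs, 3 were at least 2-fold higher in RTT and 1 was at least 2-fold lower. Their median log2 ratio was 0.73, or −0.40 over 8 members without C1q cells. Gpr183, the oxysterol receptor that positions dendritic cells in lymphoid tissue, stood at 725 CPM in NTT and 452 CPM in RTT (log2 ratio −0.68, −0.97 to −0.40). P2ry10, a receptor for lysophospholipids, stood at 397 and 198 CPM (−1.0, −1.44 to −0.59). Ccr1 and Ccr2 had positive ratios in all cells (1.40 and 0.73) and negative ones without C1q cells (−0.19 and −1.96). Genes of cytoskeleton and adhesion were mostly within 2-fold, with 1 of 14 at least 2-fold lower and a median of −0.17, or 0.05 without C1q cells. Fscn1 stood at 2202 CPM in NTT and 3196 CPM in RTT (0.54, 0.42 to 0.65, and 0.87 without C1q cells), and Marcks, which links actin to the membrane, at 1746 and 1190 CPM (−0.55, −0.73 to −0.38).

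Cytokine genes differed by less. Il12b stood at 261 CPM in NTT and 410 CPM in RTT (log2 ratio 0.65, 0.31 to 0.98). It was found in 17 of 135 NTT cells and 19 of 57 RTT cells, and 1 NTT cell held 46.6% of the NTT UMIs. Ebi3, the subunit shared by IL-27 and IL-35, stood at 113 and 219 CPM (0.96, 0.46 to 1.44). Il15ra, which presents IL-15 to T and NK cells, stood at 87.5 and 131 CPM (0.58, −0.04 to 1.18), an interval that includes 0. Il1rn, the antagonist of the IL-1 receptor, stood at 373 and 162 CPM (−1.20, −1.68 to −0.75) and was the member at least 2-fold lower. Il1b stood at 2641 and 2186 CPM (−0.27, −0.40 to −0.14). C1q cells held 44.7% of its RTT UMIs, and without them its ratio was −0.63.

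The costimulation list was split, with 2 of 12 members at least 2-fold higher and 2 at least 2-fold lower, and a median of 0.48, or 0.75 without C1q cells. Cd70, the ligand of CD27, stood at 93.8 CPM in NTT and 222 CPM in RTT (log2 ratio 1.25, 0.74 to 1.75). Tnfsf9, the ligand of 4-1BB, stood at 36.8 and 81.2 CPM (1.14, 0.29 to 1.98). On the other side were Tnfsf4, the OX40 ligand, at 189 and 49.4 CPM (−1.93, −2.84 to −1.14) and Icosl, the ligand of ICOS, at 87.5 and 28.2 CPM (−1.63, −2.90 to −0.57). These 4 genes kept their side without C1q cells (1.45, 1.33, −1.98 and −1.39). Cd40, which receives help from CD4+ T cells, stood at 292 and 516 CPM (0.82, 0.51 to 1.13), and Cd86, a ligand of CD28 and CTLA-4, at 450 and 516 CPM (0.20, −0.09 to 0.48). The list medians in the other dendritic cells were −0.90 over 7 members in cDC1 and −0.26 over 10 members in cDC2. These medians were not tested against the median in DC3.

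Immunoregulatory genes lay near 0, with a median of −0.18 over 14 members, or −0.26 over 12 without C1q cells. Cd274, encoding PD-L1, stood at 691 CPM in NTT and 420 CPM in RTT (log2 ratio −0.72, −1.02 to −0.43), and at −0.38 without C1q cells. Pdcd1lg2, encoding PD-L2, stood at 254 and 208 CPM (−0.28, −0.73 to 0.14). Cd200 stood at 973 and 812 CPM, Il4i1 at 1205 and 992 CPM, and Socs2, an inhibitor of cytokine signalling, at 753 and 749 CPM. The member at least 2-fold higher was Arg1, an arginase of macrophages, whose 25 RTT UMIs came from 4 cells. C1q cells held all 25, so no log2 ratio of Arg1 can be given without them.

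NF-kB and TNF receptor genes were also close, with 1 of 23 members at least 2-fold lower (Tnfrsf1b, a TNF receptor, −1.01) and a median of −0.27, or −0.01 without C1q cells. Relb stood at 772 CPM in NTT and 629 CPM in RTT (log2 ratio −0.30, −0.55 to −0.05), and at 0.01 without C1q cells. Nfkbia stood at 730 and 1088 CPM (0.57, 0.37 to 0.78). Tnfrsf9, encoding 4-1BB, stood at 421 and 706 CPM (0.75, 0.49 to 1.0), and Tnfrsf4 at 364 and 321 CPM (−0.18, −0.54 to 0.17).

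Among transcription factors, Nr4a3, an orphan nuclear receptor induced on activation and tied to dendritic cell migration, stood at 614 CPM in NTT and 187 CPM in RTT (log2 ratio −1.71, −2.15 to −1.30). It was found in 94 of 135 and 21 of 57 cells. Spib (−1.69), Tcf4 (−1.65) and Irf4 (−1.40), which take part in plasmacytoid and cDC2 programmes, were also at least 2-fold lower, although Irf4 was counted at 44 and 6 UMIs and stood at −0.93 without C1q cells. Irf5 stood at 119 and 265 CPM (1.15, 0.69 to 1.61). Over the list 1 of 20 members was at least 2-fold higher and 4 at least 2-fold lower. Irf8 (0.25, 0.04 to 0.45) and Stat4 (−0.04, −0.28 to 0.19) lay within 2-fold.

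The sequences upstream of several genes are shown here because the DC3 results turn on interferon, NF-kB and CCR4 ligand genes. Each is the 250 bases before the annotated start from RefSeq on GRCm38.p6, the build of these files, written 5′ to 3′ on the strand of the gene. The motifs below were searched on both strands. The response element motif was GAAA, any 2 bases and GAAA again, which reads TTTC, 2 bases and TTTC on the other strand, and is like the interferon-stimulated response element. The STAT motif was TTC, any 4 bases and GAA, which reads the same on both strands, and the kappaB motif was searched as well. Capitals mark the response element motif in Isg15, Stat2 and Igtp, the kappaB motif in Nfkbia and the STAT motif in Ccl17. Ccl22 had no match to the STAT motif in this window.
Isg15, chr4:156200819-156201068, minus strand: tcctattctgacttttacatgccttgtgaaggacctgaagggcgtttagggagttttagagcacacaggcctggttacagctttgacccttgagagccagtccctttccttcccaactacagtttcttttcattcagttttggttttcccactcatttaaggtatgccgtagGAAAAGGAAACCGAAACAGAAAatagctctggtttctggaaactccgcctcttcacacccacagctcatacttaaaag
Stat2, chr10:128270248-128270497, plus strand: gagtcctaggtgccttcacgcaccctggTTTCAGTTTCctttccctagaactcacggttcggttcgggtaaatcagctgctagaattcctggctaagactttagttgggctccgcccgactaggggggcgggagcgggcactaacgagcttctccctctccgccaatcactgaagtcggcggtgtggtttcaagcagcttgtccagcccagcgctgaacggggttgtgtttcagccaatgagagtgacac
Igtp, chr11:58199306-58199555, plus strand: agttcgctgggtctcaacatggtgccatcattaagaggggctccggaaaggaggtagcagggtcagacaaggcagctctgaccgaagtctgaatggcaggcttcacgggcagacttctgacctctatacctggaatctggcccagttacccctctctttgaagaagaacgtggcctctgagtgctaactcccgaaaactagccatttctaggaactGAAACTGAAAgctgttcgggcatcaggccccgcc
Nfkbia, chr12:55492648-55492897, minus strand: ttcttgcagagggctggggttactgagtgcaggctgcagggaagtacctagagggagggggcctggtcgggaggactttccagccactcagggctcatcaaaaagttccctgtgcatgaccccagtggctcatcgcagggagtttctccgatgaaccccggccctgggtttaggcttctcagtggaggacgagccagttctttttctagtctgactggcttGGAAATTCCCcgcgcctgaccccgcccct
Ccl22, chr8:94745434-94745683, plus strand: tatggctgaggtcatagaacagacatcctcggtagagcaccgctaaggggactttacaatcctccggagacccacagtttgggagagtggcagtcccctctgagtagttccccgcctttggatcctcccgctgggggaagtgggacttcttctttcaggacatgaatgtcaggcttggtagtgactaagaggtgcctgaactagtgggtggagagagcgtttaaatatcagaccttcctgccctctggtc
Ccl17, chr8:94810203-94810452, plus strand: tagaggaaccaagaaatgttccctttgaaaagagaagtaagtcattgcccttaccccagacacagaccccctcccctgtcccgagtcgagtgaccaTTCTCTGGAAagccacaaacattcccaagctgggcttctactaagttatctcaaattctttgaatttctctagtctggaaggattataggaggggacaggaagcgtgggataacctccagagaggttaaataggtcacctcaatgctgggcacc

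In Isg15 the 3 overlapping matches began between -78 and -66 bases relative to the start, in Stat2 the match began at -222 and in Igtp at -34. Of the interferon-stimulated members with a promoter, 16 of 29 (55.2%) held the response element motif, against 3.40% of all genes of the matrix with a promoter. The share was 10 of 19 among the members at least 2-fold lower in RTT DC3 and 6 of 10 among those within 2-fold. The kappaB motif was held by 9 of 20 NF-kB and TNF receptor members (45%), against 5.75% of all genes, and the STAT motif by 5.61% of all genes. Of the 20 leading genes of DC3, 14 had a promoter and 1 of these held the kappaB motif. Matches are a description of letters, not of binding.

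The interferon-stimulated genes were lower in RTT as a group. Of 40 members with at least 20 UMIs, 27 were at least 2-fold lower and none at least 2-fold higher, and the median log2 ratio was −1.25. The intervals of 31 members lay below 0. Monocyte markers were lower in the same sums, with a median of −2.29 over 7 members, 5 of them at least 2-fold lower, and a summed level of 1951 CPM in NTT and 343 CPM in RTT. Their part in the interferon result was not tested. These genes are induced by type I interferon, by interferon gamma or by both, and include antiviral effectors, signalling factors and guanylate-binding proteins. Isg15, a ubiquitin-like modifier whose promoter is shown above, stood at 2568 CPM in NTT and 844 CPM in RTT (log2 ratio −1.60, −1.80 to −1.41). It was found in 120 of 135 NTT cells and 22 of 57 RTT cells, and after thinning in 81.3% and 30.8%. NK cells, which express it themselves, held 737 and 111 CPM, below DC3 in both libraries.

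Further members were lower as well. Stat2, a factor of type I interferon signalling, stood at 93.8 CPM in NTT and 24.7 CPM in RTT (log2 ratio −1.92, −3.29 to −0.81). Ifitm3, which blocks viral entry, stood at 4242 and 1067 CPM (−1.99, −2.17 to −1.82). Igtp, an immunity-related GTPase, was counted at 51 UMIs in NTT and 3 in RTT. Iigp1, another of this family, was counted at 51 and 0 UMIs, at least 6.1-fold lower. The receptor genes Ifnar1 (−0.14, −0.84 to 0.51) and Ifngr1 (−0.07, −0.66 to 0.50) lay near 0.

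A few cells went against the group. The summed level of 43 interferon-stimulated genes had a median of 9883 CPM per cell in NTT (range 1780 to 74532) and 1834 CPM in RTT (0 to 94413). Of 57 RTT cells, 2 were above the NTT median. A single RTT cell held 45% of all RTT UMIs of the list, with 148 UMIs of Isg15, 58 of Cxcl10, 17 of Ccr7, 31 of Fscn1 and none of C1qb. Without the cell richest in these genes in each library, 38 of 40 members were at least 2-fold lower (10.1% of all genes) and the median was −1.86. Isg15 then stood at −2.94 and Irf7, the amplifier of type I interferon, at −1.96, compared with −0.28 in all cells. The pooled ratios of Irf7, Cxcl10 and Ifit3 thus depended on that RTT cell. The cells left out were chosen by their UMIs of this list, and the NTT cell held only 4.12% of the NTT ones. A lower ratio without them therefore follows from the choice and is no further support. Without C1q cells, 24 of 40 members were at least 2-fold lower (11.6% of all genes) and the median was −1.08.

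The other dendritic cells showed the same direction. In cDC1, 34 of 36 members were at least 2-fold lower in RTT (9.04% of all genes) with a median of −2.26, and in cDC2 41 of 43 (8.59% of all genes) with a median of −2.43. Summed per cell, the medians were 14606 CPM in NTT and 3281 CPM in RTT for cDC1, and 25682 and 6795 CPM for cDC2. None of 56 RTT cDC1 and 19 of 413 RTT cDC2 exceeded the NTT median of their population. Lower levels of these genes in RTT were therefore seen in all 3 populations. Whether the ratios of DC3 and of the other dendritic cells differ was not tested.

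**Figure D5:**
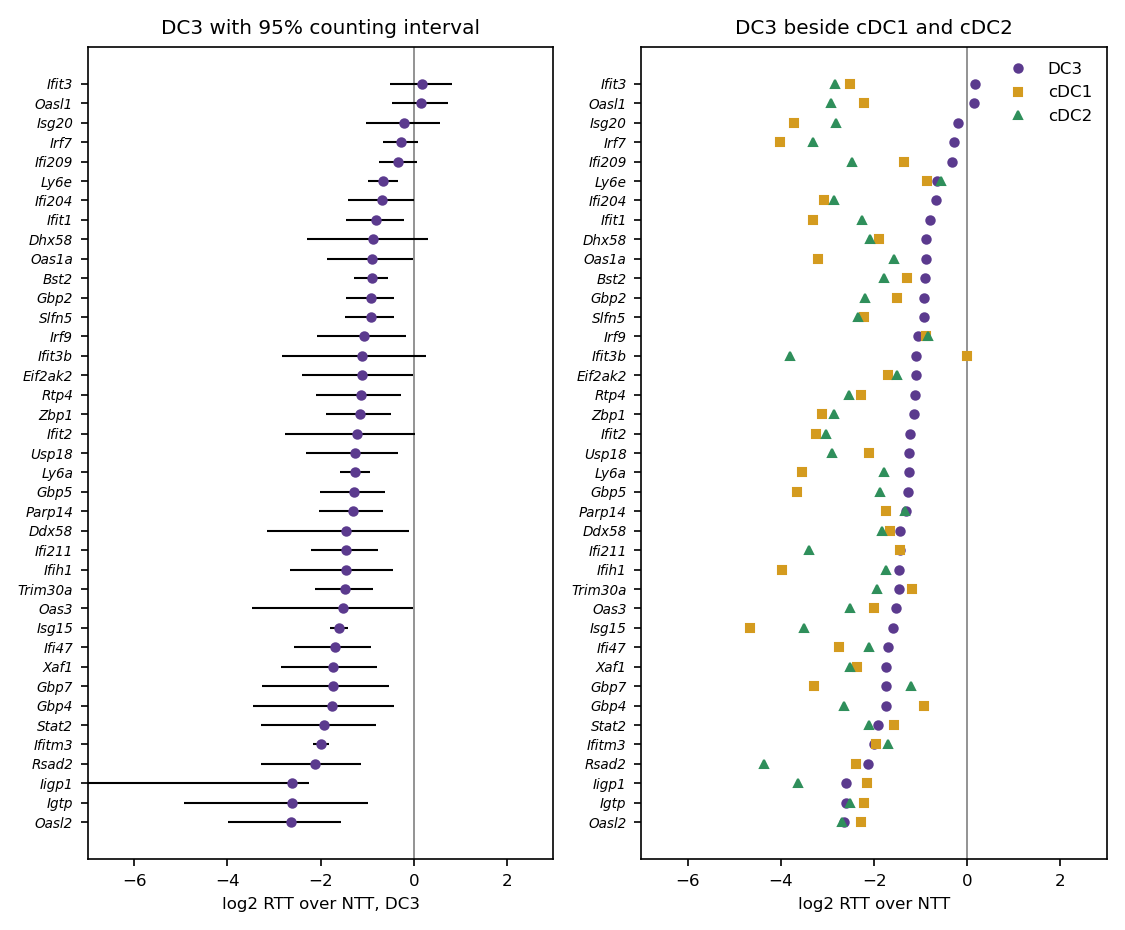
Log2 ratio of RTT to NTT for the interferon-stimulated genes reported here in DC3 with 95% counting intervals (Iigp1 at its bound), and the same genes beside their ratios in cDC1 and cDC2. The median over the list was −1.25 in DC3, −2.26 in cDC1 and −2.43 in cDC2. In DC3, 1 RTT cell held 45% of the RTT UMIs of the list. Whether the medians differ was not tested.

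Antigen presentation genes differed by less. MHC class I genes had a median log2 ratio of −0.53 over 20 members (−0.33 without C1q cells), of which 3 were at least 2-fold lower, and 12 intervals lay below 0. B2m, the light chain of class I, stood at 6469 CPM in NTT and 3659 CPM in RTT (−0.82, −0.92 to −0.73). H2-Q7 stood at 1274 and 494 CPM (−1.37, −1.63 to −1.11), but its copies in the Q region are similar enough for UMIs to be misassigned. Nlrc5, the activator of class I genes, stood at −1.05 (−2.26 to −0.02), with 52 and 9 UMIs and −0.53 without C1q cells, and Tap1, a peptide transporter, at −0.91 (−1.32 to −0.51). The medians in cDC1 and cDC2 were −0.52 and −1.09.

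MHC class II genes had a median of −0.36 over 14 members (−0.32 without C1q cells), with 3 at least 2-fold lower. The medians in cDC1 and cDC2 were −0.07 and 0.59. H2-Aa stood at 11690 CPM in NTT and 8713 CPM in RTT (log2 ratio −0.42, −0.49 to −0.36). Cd74, the invariant chain, stood at 4412 and 5259 CPM (0.25, 0.16 to 0.34). Ciita stood at 136 and 49.4 CPM (−1.46, −2.38 to −0.65). H2-Eb2, which was higher in DC3 than in the other dendritic cells, stood at 202 and 98.9 CPM (−1.03, −1.66 to −0.44). The members were therefore not uniform.

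Genes of survival were close between libraries, with a median of 0.15 over 11 members. Bcl2a1b stood at 2905 CPM in NTT and 4065 CPM in RTT (log2 ratio 0.48, 0.38 to 0.59). Bcl2l1, encoding BCL-XL, stood at 34.2 and 77.7 CPM (1.18, 0.30 to 2.05). Bcl2l11, encoding the death inducer BIM, stood at 216 and 91.8 CPM (−1.23, −1.89 to −0.63). Among cytokine receptors, Il12rb2 stood at 108 and 21.2 CPM (−2.35, −3.83 to −1.17) and Flt3, the receptor for the main dendritic cell growth factor, at 246 and 124 CPM (−0.99, −1.56 to −0.47). Il7r (−0.32, −0.66 to 0.02) and Il2ra (0.34, −0.12 to 0.79) lay within 2-fold with intervals that include 0.

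Markers of other cells were measured in the same sums. The neutrophil gene S100a8 was counted at 160 UMIs in NTT, of which 78.8% came from 1 cell, and at 1 UMI in RTT. Plac8, among the genes with the lowest ratios (−5.32), had a UMI in 60.7% of NTT and 3.51% of RTT cells of DC3, but in 70.8% and 37.3% of NK cells, 97.5% and 20.8% of cDC2, and 97.4% and 82.1% of cDC1. C1qa had a UMI in 14.1% and 33.3% of DC3 cells, against 25.3% and 29.4% of NK cells. No member of the NK cell, B cell, Langerhans cell or stromal lists reached 20 UMIs in DC3, and 1 of 10 T cell markers did. The part of free RNA in the differences was not tested.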

How the data were processed

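The deposited values were raw UMI counts of 12584 genes in 7815 cells. Per the submitters' processing notes, the authors made them with Cell Ranger 6.1.1 on mm10. Their stated filters were over 1000 genes, under 15% mitochondrial and under 40% ribosomal reads per cell, yet 5 NTT and 3 RTT cells of DC3 held 1000 genes or fewer in the deposited matrix, whose gene set is reduced. The deposited cell table also gave other labels, namely library and population names, which the authors assigned to clusters of a batch-corrected joint map. Matrix sums equalled the deposited totals in all 7815 cells.

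Per library, 2975 NTT cells held 19634099 UMIs and 4840 RTT cells 44712071 UMIs. UMIs of DC3, cDC1 and cDC2 were summed per library and turned into CPM, and log2 ratios were given exact binomial 95% intervals. A library at 0 was set to 3 UMIs. Genes were counted at a 2-fold difference with at least 50 UMIs, and list members needed 20 UMIs. Shares have Clopper-Pearson intervals, and their differences Newcombe intervals. These intervals cover counting error only. With 1 library per group no test between groups was run, and the code was tested on simulated data. Members and gene lists were chosen with earlier results of these data known. Named genes were list members, the 12 genes with the largest ratios in each direction (found in at least 10 cells, no cell holding most UMIs), the 20 leading genes of DC3 and the 10 genes most like Ccr7. Doublets were scored per library with Scrublet in scanpy 1.11.5, whose automatic threshold marked 0 of 7815 cells, so no cell was removed. Alternatives used TMM (edgeR 4.0.16) and DESeq2 1.42.0 size factors for scaling only, other minimums, and subsets of cells. Promoters were read from RefSeq on GRCm38.p6. Python 3.11.15 with numpy 2.4.6, scipy 1.17.1 and pandas 2.3.3 was used. Some list members are counted but not reported by name here.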

Additional observations from a re-analysis of the deposited data

Results flagged for a closer look

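Genes with a log2 ratio of RTT to NTT of opposite sign in DC3 and in another dendritic cell population, each at least 2-fold and with 20 UMIs, are given here. With 1 library per group the difference was not tested. Ccl5 had a ratio of 1.41 in DC3 and −2.65 in cDC2, on 3334 and 3186 UMIs in DC3 and 298 and 71 UMIs in cDC2, and 1.85 in DC3 without C1q cells. The ratios of Ccl12 and Fcgr1 lay nearer 0 without C1q cells. Arg1 had 4.54 in DC3 and −2.17 in cDC2, on 3 and 25 UMIs in DC3. C1q cells held all 25, so no ratio of Arg1 can be given without them. Ccl12 had 3.40 in DC3 and −2.22 in cDC1, on 14 and 53 UMIs in DC3, and 0.91 without C1q cells. Fcgr1, a high-affinity Fc receptor, had 1.95 in DC3, −1.92 in cDC1 and −1.09 in cDC2, on 39 and 54 UMIs in DC3, and 0.46 without C1q cells.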

How the results depend on the processing

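Of 98 alternative values, 85 stayed within a range set for each result and 12 moved further. For lists the range ran from the median of the members' lower bounds to the median of their upper bounds. It is no interval of the list median and was wide (interferon-stimulated −2.14 to −0.43), so staying within it says little. For shares the range was the interval, and for counts of genes 1.5 times either way. The other 1, the macrophage list, moved to the other sign, counted only where the range lay off 0. The macrophage list had a median of −0.089 over 11 members without C1q cells and 3.17 over 11 members without the 5% highest doublet scores. Leaving out the highest doublet scores, or the cell richest in interferon-stimulated genes in each library, was chosen after seeing the data. The MHC class II median was −0.51 with TMM and −0.52 with DESeq2 size factors, and the median of the 5 markers was 0.44 without C1q cells. This median, 0.03 in all cells, was below 0 with at least 1500 genes (−0.12), with 3 markers (−0.17), with TMM (−0.11) and with DESeq2 size factors (−0.12). Genes at least 2-fold higher in RTT DC3 numbered 102 without the highest doublet scores, 81 without C1q cells, 1633 with no minimum and 63 at 100 UMIs. Those at least 2-fold lower numbered 913 with no minimum and 112 at 100 UMIs. Requiring 3 markers after thinning, whatever the name of the cell, gave differences of −2.44 points of all cells and −11.1 points of dendritic cells. The interferon-stimulated median stayed between −1.86 and −0.98, and the costimulation median between 0.33 and 0.75. Removing called doublets could not be run, since no cell was called. No paired analysis was possible because each group held 1 library. At 283153 UMIs in RTT DC3, a gene at 0 there could still hold up to 3 UMIs, and cells that look alike in 1 tumour per line do not measure the spread between tumours.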

Other observations

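Among genes outside the lists, those with the lowest ratio in RTT DC3 included Timd4, a receptor for phosphatidylserine, which was counted at 165 UMIs in 35 NTT cells and at 1 UMI in RTT (log2 ratio −5.89, −11.20 to −3.39). NK cells and neutrophils of both libraries held none of it. Ifitm6, a member of the interferon-induced transmembrane family, was counted at 176 and 1 UMIs (−5.98, −11.29 to −3.48), and RTT NK cells held more of it (127 CPM) than RTT DC3. Gstt3, a glutathione transferase, was found in 54 of 135 NTT and 4 of 57 RTT cells (−2.76, −4.10 to −1.68). Scd1, a fatty acid desaturase, was counted at 52 and 2 UMIs (−3.22, −6.31 to −1.30), and Irgm1, an immunity-related GTPase, at 59 and 2 UMIs (−3.40, −6.48 to −1.49). Each of these 5 genes was lower in RTT. Timd4, Ifitm6, Scd1 and Irgm1 were lower in RTT cDC1 as well (−2.05, −3.13, −2.42 and −1.90). The same 4 genes were lower in RTT cDC2 (−2.40, −3.75, −2.69 and −2.47). Gstt3 stood at 0.15 in cDC2 and had 0 and 1 UMIs in cDC1.

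Higher in RTT was Cd81, a tetraspanin, found in 23 NTT and 35 RTT cells with 101 and 322 UMIs (3.15, 2.82 to 3.49), and at 3.42 without C1q cells. RTT DC3 held 1137 CPM of it, RTT NK cells 499 CPM, RTT neutrophils 1306 CPM and all RTT cells outside DC3 1223 CPM. Cd81 was also higher in RTT in cDC1 (1.81) and cDC2 (2.57). Kdm4a, a histone demethylase, was found in 13 and 19 cells (2.71, 1.86 to 3.62), and at 3.07 without C1q cells. Pmepa1, a target of TGF-beta signalling, stood at 3.86 and at 2.40 without C1q cells. Fcrls was counted at 0 and 107 UMIs, at least 99.3-fold higher, but C1q cells held 97 of these UMIs, and without them the log2 ratio against 3 UMIs was 3.65, compared with 6.63. Neutrophils of RTT held 3257 CPM of it. The part of free RNA in these values was not tested.

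Further lists differed as follows. The core genes of conventional dendritic cells had a median log2 ratio of −0.01 over 10 members, and cytokine receptors −0.07 over 19. Neutrophil markers had −3.71 over 3 members, and 1 NTT cell held 78.8% of the S100a8 UMIs and 59.6% of the S100a9 UMIs. Antigen capture genes had 0.49 over 14 members and −0.55 over 9 members without C1q cells. Glycolysis genes had −0.03 over 14 members and −0.84 without C1q cells. Dissociation stress genes had 0.19 over 12 members, and prostaglandin genes −0.73 over 3. In the study's list of top markers for this population, drawn from tumours of another melanoma line, 16 of 20 members were at least 2-fold higher in DC3 than in cDC1 and cDC2 in both libraries. The populations were named on a joint map that included the present libraries, and Ccr7, Cacnb3 and Il4i1 are also label markers. The overlap is therefore no independent check.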
